A study of Mus musculus with 6 samples.

Results

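Collagens are the trimeric proteins of the extracellular matrix, and 44 genes for their alpha chains were found among the 19124 gene symbols measured in CD31-sorted cells of the mouse retina. The members are all symbols made of Col, a number, the letter a and a number, each taken once. Members were picked by name, but the choice of this group was made with earlier results of these data known. The 3 KO libraries came from C57BL/6 pups of genotype Pdgf{beta}CreERT2pos Rnf20p/p, and the 3 Ctrl libraries from Pdgf{beta}CreERT2neg Rnf20p/p pups, which carry the same Rnf20 allele without the Cre. CreERT2 is a recombinase that becomes active with tamoxifen, and the labels write the promoter that drives it as Pdgf{beta}. Per the labels, pups received 75 µg of Z-4-HO-Tamoxifen daily from postnatal day 1 to day 4. At day 7 retinas were digested with collagenase, and cells were sorted for CD31, a surface protein of endothelium that is also found on platelets and part of the leukocytes. Each library is a different pup. Polyadenylated RNA was amplified as cDNA from very low input and sequenced without strand information. Rnf20 encodes a ubiquitin ligase that, with its partner Rnf40, attaches ubiquitin to histone H2B. The comparison asks which collagen genes differ in level between KO and Ctrl cells.

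Collagens fall into classes by the structures they build. Type IV chains form the network of basement membranes, the sheets on which endothelium rests, and types XV and XVIII are basement membrane collagens that carry sugar chains and whose C-terminal ends can be cleaved off, for type XVIII as endostatin. Fibrillar collagens (types I, II, III, V, XI, XXIV and XXVII) build fibrils, and FACIT collagens lie on the surface of fibrils. In sprouting retinal vessels the basement membrane is laid down by endothelial cells together with the pericytes that wrap them.

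The libraries held 25016982, 27726249 and 30692948 counts in KO cells and 28969300, 22677108 and 14581701 counts in Ctrl cells. Levels are given as CPM, the usual depth-scaled counts, with each library's depth scaled by its TMM factor. Calls are a Benjamini-Hochberg adjusted p under 0.05 in the quasi-likelihood test of edgeR, fitted over 16217 genes, in which 10.3% of genes were called, 5.85% as higher and 4.44% as lower in KO cells. Rnf20 itself was at 39.1, 31.0 and 31.7 CPM in KO cells, against 47.9, 57.1 and 56.8 CPM in Ctrl cells. All KO values lay below all Ctrl values, and the log2 fold change of -0.67 (SE 0.235) had an adjusted p of 0.101, from 0.00222 to 0.309 over its alternatives. The labels do not give which part of Rnf20 is deleted, and the counts cover the whole gene.

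Lists of cell type markers were compared between the groups. Their calls stand beside 5.85% of all genes called as higher and 4.44% called as lower. Of 15 endothelial markers tested, 11 were higher in KO cells and none was lower (none at an unadjusted p under 0.05, and none with DESeq2), and their mean log2 CPM was 8.83, 8.96 and 8.57 in KO cells against 7.11, 7.68 and 7.69 in Ctrl cells. Photoreceptor markers had mean log2 CPM of 7.67, 8.66 and 9.93 in KO cells and 10.29, 9.70 and 9.90 in Ctrl cells, and 2 of 14 passed as lower. Mural cell markers stood at 4.00, 4.50 and 3.83 in KO cells and 2.34, 3.05 and 3.85 in Ctrl cells. Of these 12 markers 1 passed as higher (8.33%), a share that rests on 1 gene. Fibroblast markers other than collagens stood at 2.47, 2.10 and 2.15 in KO cells against 1.03, 1.30 and 1.83 in Ctrl cells, with 2 of 7 passing as higher. Inner retinal neuron markers summed to 951, 873 and 1609 CPM in KO cells and 3011, 2684 and 2615 CPM in Ctrl cells, with 4 of 13 passing as lower. Glia markers summed to 2902, 17379 and 5941 CPM in KO cells and 3014, 2748 and 2331 CPM in Ctrl cells, with 4 of 12 passing as higher. Of these sums Apoe alone held 445, 14882 and 3770 CPM in KO cells and 1704, 1355 and 609 CPM in Ctrl cells. The mean log2 CPM of the glia list was 6.21, 6.96 and 6.64 in KO cells and 5.53, 5.82 and 6.13 in Ctrl cells. Microglia and macrophage markers ranged widely, at 221, 12259 and 2349 CPM in KO cells and 1224, 1498 and 250 CPM in Ctrl cells. None of these 14 passed in edgeR, with 1 higher at an unadjusted p under 0.05 and 1 called by DESeq2. The part of these marker differences in the collagen results was not tested. In such bulk samples fewer cells of a type and less RNA per cell cannot be told apart, and a CPM of a collagen reads the make-up of the sorted cells as well as their expression.

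Across all collagens, 5 of 39 tested genes (12.8%) were higher in KO cells and none was lower. Beside this, 10.3% of all genes were called, 5.85% as higher and 4.44% as lower. At an unadjusted p under 0.05, 10 collagens were higher, beside 16.2% of all genes, and 1 was lower, beside 14.3%. DESeq2 called 8 collagens as higher, beside 12.9% of all genes, and none as lower. The 5 were Col4a1, Col4a2, Col18a1 and Col15a1 of the basement membrane class and the fibrillar Col5a1. Over the 39 collagens the median log2 fold change was 0.26, against 0.03 over all genes tested. KO and Ctrl values did not overlap for 10 collagens with KO above (25.6%, beside 19.0% of all genes) and for 2 with KO below (5.13%, beside 18.9%). The other 5 members had too few counts to test: Col10a1 had 24 counts over the 6 libraries, Col6a4 had 54, Col6a5 had 35, Col6a6 had 73 and Col8a2 had 35. The authors' deposited table gives an adjusted p under 0.05 to 9 collagens, all higher in KO cells, and to 21.8% of all symbols.

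**Figure D1:**
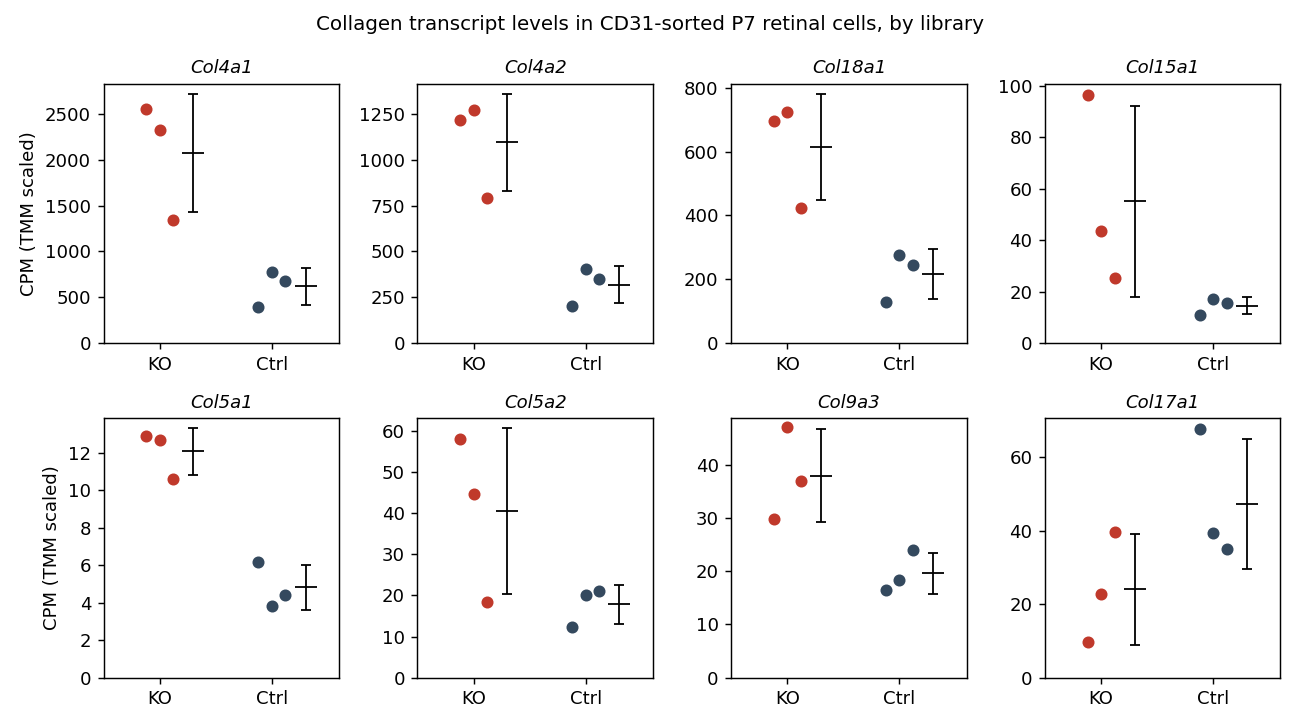
Level of 8 collagens in CPM, on linear axes from 0, with KO libraries left of Ctrl libraries. Each point is 1 library and the black mark beside each group is its mean with 1 SD. KO points of Col4a1 lie between 1338 and 2552 CPM, above Ctrl points of 395 to 777 CPM, and the groups overlap for Col5a2 and Col17a1.

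Promoter windows of the 5 called collagens are shown because those of Col4a1 and Col4a2 overlap and both genes rose. Each is the RefSeq window of assembly GRCm38.p6 from 250 bases before to 50 bases after a start site, 5′ to 3′ on the gene's strand, with matches to the GC box (GGGCGG or its reverse complement CCGCCC) in capitals. Col4a1 lies at chr8:11312777-11313076 on the minus strand and Col4a2 at chr8:11312555-11312854 on the plus strand. Col18a1 has windows at chr10:77166481-77166780 and chr10:77113656-77113955, both on the minus strand, of which the outer is printed. Col15a1 lies at chr4:47207762-47208061 and Col5a1 at chr2:27886175-27886474, both on the plus strand. The Col15a1 window lies inside the gene span used for the counts, which starts at 47207655. The bases before that start are not shown, and the values for Col15a1 below describe the printed window only.
Col4a1: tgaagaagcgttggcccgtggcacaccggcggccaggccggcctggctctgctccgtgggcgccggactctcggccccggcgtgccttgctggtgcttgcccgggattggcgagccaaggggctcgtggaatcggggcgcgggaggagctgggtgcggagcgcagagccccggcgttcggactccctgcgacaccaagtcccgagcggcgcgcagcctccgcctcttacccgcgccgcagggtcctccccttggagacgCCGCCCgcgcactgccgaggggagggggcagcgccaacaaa
Col4a2: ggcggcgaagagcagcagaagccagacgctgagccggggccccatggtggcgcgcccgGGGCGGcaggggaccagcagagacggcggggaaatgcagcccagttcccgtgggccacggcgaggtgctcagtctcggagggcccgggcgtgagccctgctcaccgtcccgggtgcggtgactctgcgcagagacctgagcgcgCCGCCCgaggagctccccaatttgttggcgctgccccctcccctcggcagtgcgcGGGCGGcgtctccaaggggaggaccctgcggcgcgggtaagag
Col18a1: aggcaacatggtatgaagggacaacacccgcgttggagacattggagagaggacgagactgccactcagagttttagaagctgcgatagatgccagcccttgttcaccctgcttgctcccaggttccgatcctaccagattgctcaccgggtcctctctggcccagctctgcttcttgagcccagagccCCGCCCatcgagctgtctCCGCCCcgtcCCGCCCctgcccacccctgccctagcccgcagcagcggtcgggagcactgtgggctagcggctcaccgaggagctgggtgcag
Col15a1: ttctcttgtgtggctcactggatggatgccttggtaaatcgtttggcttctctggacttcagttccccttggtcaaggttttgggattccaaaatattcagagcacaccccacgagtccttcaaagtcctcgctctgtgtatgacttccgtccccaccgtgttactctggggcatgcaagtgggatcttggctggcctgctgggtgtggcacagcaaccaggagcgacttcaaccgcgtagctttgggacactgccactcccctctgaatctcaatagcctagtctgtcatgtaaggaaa
Col5a1: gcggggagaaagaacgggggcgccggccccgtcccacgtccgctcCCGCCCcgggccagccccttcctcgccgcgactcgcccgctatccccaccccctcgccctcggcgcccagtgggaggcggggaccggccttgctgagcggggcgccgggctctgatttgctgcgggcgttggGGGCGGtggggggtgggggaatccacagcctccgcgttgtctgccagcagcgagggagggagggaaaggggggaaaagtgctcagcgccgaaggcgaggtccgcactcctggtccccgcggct
The Col4a1 and Col4a2 windows run in opposite directions and overlap by 78 bases, since the starts used for the windows (11312826 and 11312805) are 21 bases apart. The Col4a1 gene span given below begins at 11312889 instead. The single GC box of the Col4a1 window lies in those shared bases and is also 1 of the 3 of the Col4a2 window, printed there as the other strand. Col18a1 has 3 GC boxes in its outer window and 0 in its inner one, Col5a1 has 2 and Col15a1 has 0. A GC box stands in 23 of the 38 windows of the 35 collagens that have one in the table (60.5%), and in 35.7% of all 32851 windows. GC content was 74.0% in the Col4a1 window, 73.7% in that of Col4a2, 75.0% in that of Col5a1, 63.3% in the outer window of Col18a1 and 52.3% in that of Col15a1, beside a median of 52.7% over all windows. The CCAAT box (CCAAT or ATTGG) stood in 34.2% of collagen windows and 37.4% of all windows, and the TATA box (TATAAA or TTTATA) in 13.2% of collagen windows and 13.6% of all windows. The exact ETS form CCGGAA or TTCCGG stood in 0 of the 38 collagen windows and 14.9% of all windows. The exact SOX form AACAAT or ATTGTT stood in 2.63% of collagen windows and 10.7% of all windows. Shorter or other forms of these sites were not counted. A match describes the letters of the window only.

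Of the 8 basement membrane collagens, 4 rose in KO cells and none fell (none at an unadjusted p under 0.05, by DESeq2 or by limma-voom), beside 5.85% of all genes called as higher. Their median log2 fold change was 0.88. Col4a1, whose chain makes up most of the type IV collagen of vessels, was at 2552, 2324 and 1338 CPM in KO cells and 395, 777 and 678 CPM in Ctrl cells. The means were 2071 ± 645 CPM in KO cells and 617 ± 198 CPM in Ctrl cells (SD, n = 3 each), a log2 fold change of 1.75 (SE 0.365, adjusted p = 0.0292). Every KO library lay above every Ctrl library, and among KO libraries replicate 3 was lowest, the replicate that also had the lowest endothelial and the highest photoreceptor marker level of the group. Their part in the result was not tested.

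Col4a2, the chain that joins that of Col4a1 in the type IV trimer, was at 1218, 1274 and 792 CPM in KO cells, against 204, 401 and 348 CPM in Ctrl cells. That is 1095 ± 264 CPM in KO cells and 318 ± 102 CPM in Ctrl cells (SD, n = 3 each), and a log2 fold change of 1.78 (SE 0.338, adjusted p = 0.0239). Groups again did not overlap, and KO replicate 3 was again the lowest KO library. The genes lie head to head on chromosome 8 (RefSeq, assembly GRCm38.p6, as for the genes that follow), Col4a1 (NM_009931) from 11198423 to 11312889 on the minus strand and Col4a2 (NM_009932) from 11312805 to 11449287 on the plus strand. They overlap by 85 bases, and without strand the few reads of that stretch cannot be assigned to either.

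The 2 chains kept close to 1 ratio. Col4a1 had 2.09, 1.82 and 1.69 counts per Col4a2 count in KO cells and 1.93, 1.94 and 1.95 in Ctrl cells, and the groups overlapped (exact two-sided permutation test, p = 0.7, where 3 against 3 cannot go below 0.1). Divided by the exonic length of each gene the ratio was 2.04, 1.78 and 1.65 in KO cells and 1.89, 1.89 and 1.90 in Ctrl cells. Both groups held more Col4a1 than Col4a2 per length, with the KO libraries on both sides of the narrow Ctrl range.

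Col18a1, the source of endostatin, was at 695, 725 and 423 CPM in KO cells and 127, 277 and 243 CPM in Ctrl cells. Means were 614 ± 167 CPM in KO cells and 216 ± 78.9 CPM in Ctrl cells (SD, n = 3 each), and the log2 fold change was 1.51 (SE 0.365, adjusted p = 0.0404). No KO library was as low as any Ctrl library. The gene (NM_009929) spans 77052178 to 77166530 on chromosome 10, minus strand, and a second entry (NM_001109991) starts 52825 bases further in, near the inner promoter window. Counts found only in the longer entry were 270, 426 and 503 in KO cells and 242, 175 and 93 in Ctrl cells. These were 1.52%, 2.34% and 4.08% of the longer entry's counts in KO cells and 6.51%, 2.60% and 2.49% in Ctrl cells, so nearly all Col18a1 counts in both groups came from the part that both entries cover.

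Col15a1, which sits where basement membranes meet the underlying matrix, was much less abundant. It was at 96.6, 43.6 and 25.1 CPM in KO cells and 10.8, 17.0 and 15.7 CPM in Ctrl cells. KO values spread more widely than those of the other called collagens, with replicate 1 highest, and none was as low as a Ctrl value. The log2 fold change was 1.93 (SE 0.493, adjusted p = 0.0464). Without KO replicate 1 it was 1.32. The gene (NM_009928) spans 47207655 to 47313167 on chromosome 4.

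The remaining type IV chains, found in the basement membranes of kidney glomeruli, lung, skin and a few other sites, stood far lower and did not pass the test. Col4a3 was at 6.66, 5.34 and 4.87 CPM in KO cells and 2.08, 6.35 and 5.67 CPM in Ctrl cells (log2 fold change 0.26, adjusted p = 0.747). Col4a5 was at 3.88, 6.13 and 2.91 CPM in KO cells and 2.02, 4.79 and 5.47 CPM in Ctrl cells (0.08, adjusted p = 0.934). Col4a4 and Col4a6 were at or under 1.57 CPM in every library, with log2 fold changes of 0.10 and -0.82 and adjusted p of 0.963 and 0.523. Groups overlapped for all 4.

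**Figure D2:**
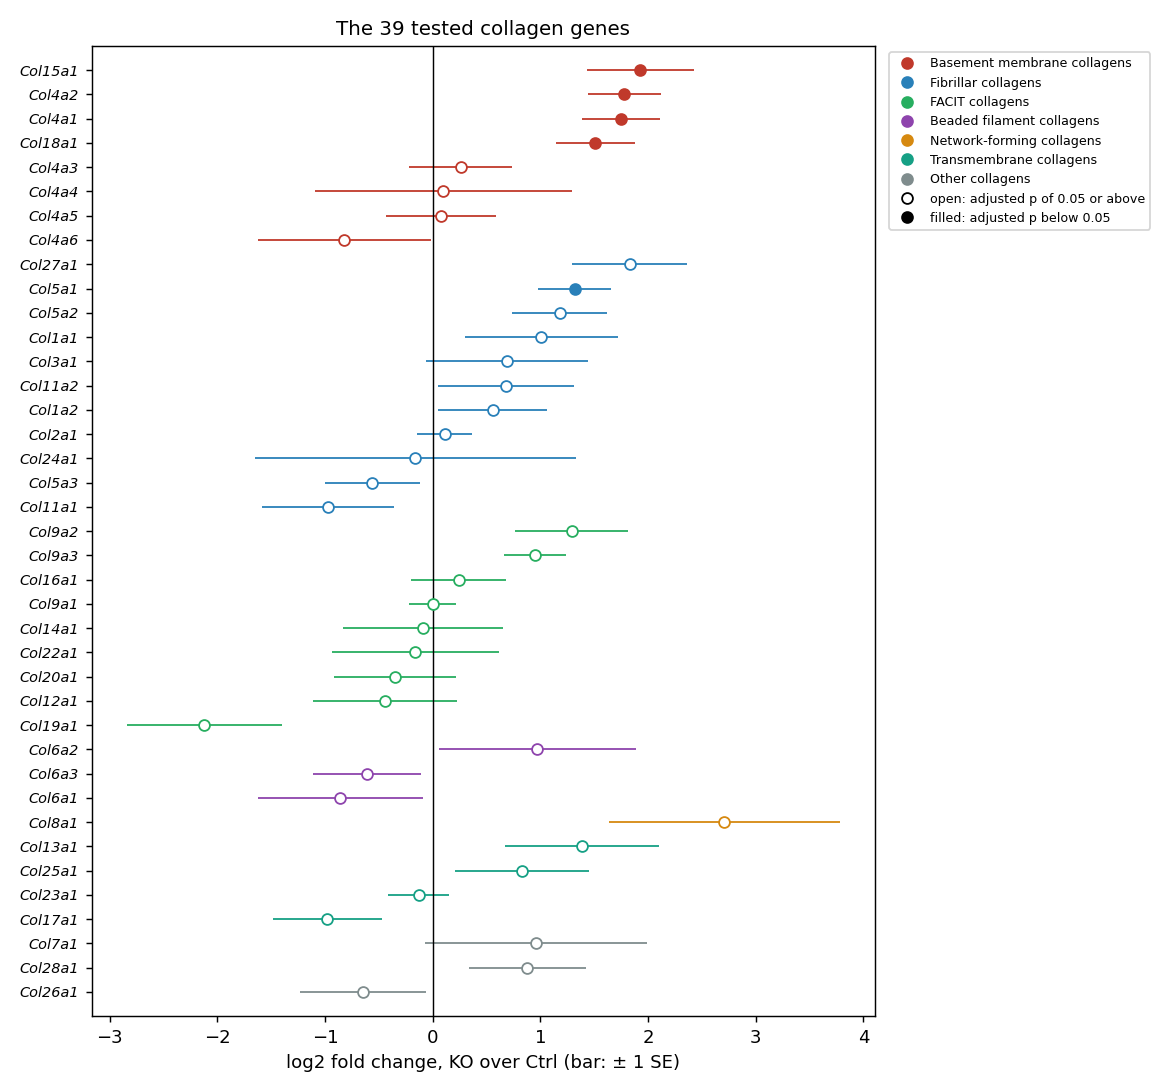
Log2 fold change of KO over Ctrl for the 39 tested collagens, by class, with bars of 1 SE. Filled points passed the adjusted p threshold of 0.05. The 4 filled points of the basement membrane class lie between 1.51 and 1.93, and the other 4 members of that class lie between -0.82 and 0.26.

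Among the fibrillar collagens 1 of 11 tested rose and none fell (none at an unadjusted p under 0.05, by DESeq2 or by limma-voom). This share of 9.09% rests on 1 gene, beside 5.85% of all genes called as higher and 10.3% called in either direction. The median log2 fold change of the fibrillar collagens was 0.68. The difference between this class and the basement membrane class was not tested. Col5a1, a chain of type V collagen, which regulates how fibrils start and how thick they grow, was at 12.9, 12.7 and 10.6 CPM in KO cells and 6.18, 3.84 and 4.43 CPM in Ctrl cells. Means were 12.1 ± 1.28 CPM in KO cells and 4.82 ± 1.22 CPM in Ctrl cells (SD, n = 3 each), a log2 fold change of 1.32 (SE 0.340, adjusted p = 0.0473). KO values lay close together and above all Ctrl values. The gene (NM_015734) spans 27886381 to 28039510 on chromosome 2, plus strand.

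Col5a2, which pairs with Col5a1 in type V trimers, was at 58.2, 44.8 and 18.5 CPM in KO cells and 12.4, 20.1 and 21.1 CPM in Ctrl cells. KO replicate 3 fell inside the Ctrl range, and the log2 fold change of 1.18 (SE 0.442) had an adjusted p of 0.119. Without KO replicate 3 it was 1.57 with an adjusted p of 0.0483, and the adjusted p ranged from 0.0452 to 0.816 over the 15 alternatives. Col27a1, a fibrillar collagen of cartilage, was at 6.82, 6.65 and 3.74 CPM in KO cells and 1.40, 2.56 and 0.847 CPM in Ctrl cells. Its groups did not overlap, but the log2 fold change of 1.83 (SE 0.533) had an adjusted p of 0.0636. It passed with DESeq2 (1.87, adjusted p = 0.00797) and in edgeR without KO replicate 1, and its adjusted p ranged from 0.00797 to 0.493 over the alternatives.

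The collagens most typical of fibroblasts were low. Col1a1, a chain of type I collagen, was at 0.823, 4.78 and 2.06 CPM in KO cells and 1.71, 0.908 and 1.17 CPM in Ctrl cells (log2 fold change 1.01, adjusted p = 0.369). Col1a2, the other type I chain, was at 3.57, 9.04 and 4.46 CPM in KO cells against 3.86, 2.39 and 5.34 CPM in Ctrl cells (0.56, adjusted p = 0.486), and Col3a1, which forms type III fibrils, at 14.0, 17.0 and 7.03 CPM in KO cells against 1.50, 5.78 and 16.4 CPM in Ctrl cells (0.69, adjusted p = 0.568). KO and Ctrl values overlapped for all 3. Beside these, the fibroblast markers other than collagens summed to 308, 301 and 221 CPM in KO cells and 90.3, 134 and 209 CPM in Ctrl cells. Pdgfra alone was at 230, 194 and 130 CPM in KO cells and 69.1, 105 and 168 CPM in Ctrl cells. It did not pass, and the sum of the list reads mainly this 1 gene. Pdgfra is not particular to fibroblasts, so the sum does not measure fibroblasts alone. Of the 10 on that list, 7 were tested, Dcn and Fbln1 passed as higher in KO cells and 5 did not pass, beside 5.85% of all genes called as higher. Dcn rested on few counts, 39, 23 and 25 in KO cells and 0, 0 and 2 in Ctrl cells. The part of the fibroblast markers in the collagen levels was not tested.

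Col2a1, the fibrillar collagen of cartilage and of the vitreous, was the most abundant of its class and had nearly equal levels. It was at 93.8, 135 and 94.8 CPM in KO cells and 117, 93.5 and 89.9 CPM in Ctrl cells, or 108 ± 23.6 CPM in KO cells and 100 ± 14.5 CPM in Ctrl cells (SD, n = 3 each). The log2 fold change was 0.11 (SE 0.253, adjusted p = 0.802), and with offsets for GC content it was -0.52. Col24a1, a rare fibrillar collagen, varied widely between libraries, at 8.47, 0.0398 and 0.583 CPM in KO cells and 0.239, 3.80 and 6.19 CPM in Ctrl cells, and each group held both high and low libraries (log2 fold change -0.16, adjusted p = 0.954).

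None of the 9 FACIT collagens passed the test in either direction. Of them, 2 were higher and 1 was lower at an unadjusted p under 0.05, beside 16.2% and 14.3% of all genes. DESeq2 called 1 as higher, beside 12.9% of all genes, and limma-voom called none. Col9a1, a chain of type IX collagen that binds to type II fibrils, was at 93.8, 89.7 and 101 CPM in KO cells and 90.9, 86.6 and 107 CPM in Ctrl cells. Its means of 94.9 ± 5.84 CPM in KO cells and 94.7 ± 10.6 CPM in Ctrl cells differed by far less than their spread (SD, n = 3 each, log2 fold change 0.00, SE 0.217, adjusted p = 0.993).

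For both partner chains of Col9a1 in type IX all KO values lay above all Ctrl values, as they did for 19.0% of all genes tested. Col9a3 was at 29.8, 47.1 and 36.9 CPM in KO cells and 16.5, 18.4 and 23.9 CPM in Ctrl cells, a log2 fold change of 0.95 (SE 0.292, adjusted p = 0.0718). It was the FACIT collagen that DESeq2 called (adjusted p = 0.0211), and without KO replicate 1 it passed edgeR's test at 1.17 (adjusted p = 0.0159, with 0.0159 to 0.456 over the alternatives). The gene overlaps Tcfl5, with which it may share counts. Col9a2 was at 3.68, 4.18 and 5.62 CPM in KO cells and 0.854, 2.10 and 2.61 CPM in Ctrl cells (1.29, adjusted p = 0.144). In the other direction, Col19a1, a rare collagen of basement membrane zones, was at 0.235, 0.119 and 0.480 CPM in KO cells and 1.26, 1.28 and 1.17 CPM in Ctrl cells (-2.12, adjusted p = 0.0906).

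Transmembrane collagens, which span the cell membrane, had 4 tested members. Col17a1, known from the hemidesmosomes of skin, was at 9.64, 22.8 and 39.8 CPM in KO cells and 67.7, 39.4 and 35.1 CPM in Ctrl cells. KO replicate 3 exceeded Ctrl replicates 2 and 3, and the log2 fold change of -0.98 had an adjusted p of 0.230. The summed level of 14 photoreceptor markers, 5053, 10486 and 24814 CPM in KO cells and 35683, 19961 and 22967 CPM in Ctrl cells, was lowest and highest in the same libraries as Col17a1, and its part in that pattern was not tested. With GC offsets Col17a1 passed as lower at -1.42 (adjusted p = 0.0454, from 0.00882 to 0.514 over the alternatives). Col23a1 was at 16.2, 13.7 and 16.3 CPM in KO cells and 20.5, 14.6 and 15.4 CPM in Ctrl cells (-0.13, adjusted p = 0.793). None of the 4 transmembrane collagens passed, and none had an unadjusted p under 0.05 or a call by DESeq2.

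Of the 3 tested beaded filament collagens, Col6a1, Col6a2 and Col6a3, which form type VI filaments, none passed in either direction and none had an unadjusted p under 0.05 or a call by DESeq2. Col6a3 was at 1.33, 1.39 and 1.41 CPM in KO cells, all below the 2.26, 1.44 and 2.61 CPM of Ctrl cells (log2 fold change -0.61, adjusted p = 0.445). Network-forming Col8a1, made by vessel walls and by the corneal endothelium, was at 1.02, 3.43 and 0.480 CPM in KO cells and 0.0342, 0.454 and 0.261 CPM in Ctrl cells, from 26, 86 and 14 counts against 1, 11 and 4. All KO values exceeded all Ctrl values, yet the log2 fold change of 2.71 had an SE of 1.07 and an adjusted p of 0.134. Its median in the class is that 1 gene, since Col10a1 and Col8a2 were not tested. Col7a1, Col26a1 and Col28a1, the other collagens, had log2 fold changes of 0.96, -0.65 and 0.88, and none passed, had an unadjusted p under 0.05 or a call by DESeq2.

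Per exonic length the order of the collagens was led by the same 3 genes in both groups. Col4a1 reached 313 ± 97.6 CPM per exonic kb in KO cells and 93.3 ± 30.0 in Ctrl cells, Col4a2 170 ± 40.9 in KO cells and 49.3 ± 15.8 in Ctrl cells, and Col18a1 121 ± 32.9 in KO cells and 42.6 ± 15.6 in Ctrl cells (SD, n = 3 each). Col9a1 and Col2a1 followed at 24.8 ± 1.52 and 22.2 ± 4.85 in KO cells and 24.7 ± 2.76 and 20.6 ± 2.99 in Ctrl cells, and these neighbours did not differ beyond their spread. Next in KO cells came Col9a3 at 13.3 ± 3.05 and Col15a1 at 10.7 ± 7.17 CPM per kb, also within their spread. In Ctrl cells Col17a1 stood next, at 8.48 ± 3.16 CPM per kb, with Col9a3 at 6.89 ± 1.36 and Col15a1 at 2.80 ± 0.630. The deposited counts cover the genomic span with introns, so a level per exonic length is approximate.

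Basement membrane collagens took a larger part of all collagen counts in KO cells. All collagens together made up 0.506%, 0.436% and 0.281% of counts in KO libraries and 0.113%, 0.193% and 0.175% in Ctrl libraries. The basement membrane class held 92.1%, 90.9% and 87.4% of these in KO cells and 66.2%, 82.2% and 78.3% in Ctrl cells, while the fibrillar class held 4.13%, 4.96% and 5.05% in KO cells and 13.9%, 7.84% and 9.31% in Ctrl cells. Neither pair of groups overlapped (exact two-sided permutation test, p = 0.1, the smallest that 3 against 3 allows). Shares of the same total are tied, so a higher basement membrane share lowers the others, and these results are not separate. In absolute terms, collagens outside the basement membrane class summed to 390, 440 and 371 CPM in KO cells and 380, 321 and 360 CPM in Ctrl cells. Fibrillar collagens alone summed to 205, 239 and 149 CPM in KO cells and 157, 141 and 155 CPM in Ctrl cells, and these groups overlapped. The sum of the basement membrane class was 4574, 4380 and 2586 CPM in KO cells and 743, 1485 and 1299 CPM in Ctrl cells, and in this class all KO sums exceeded all Ctrl sums.

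**Figure D3:**
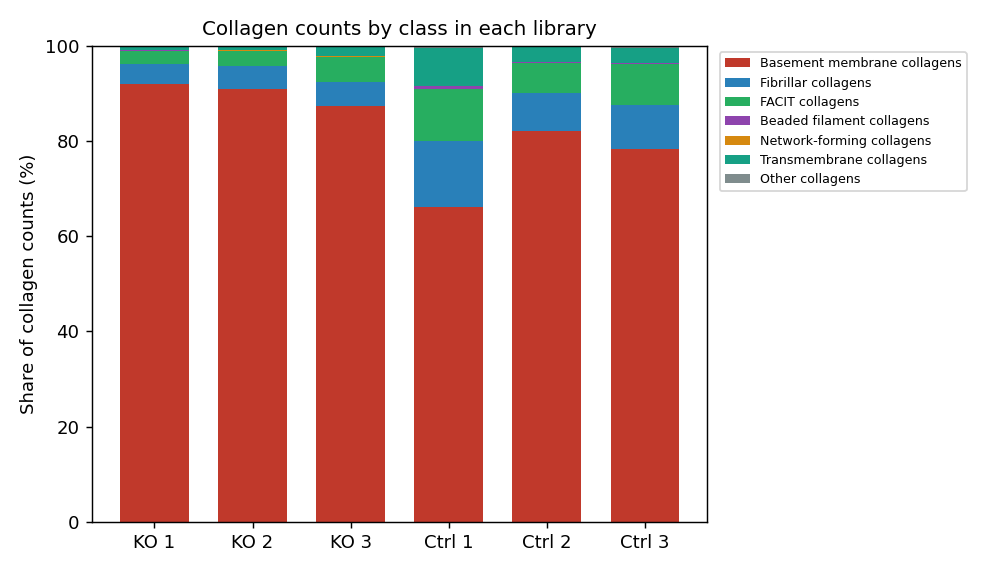
Share of all collagen counts held by each class in each library, in percent, KO libraries left of Ctrl libraries. Each bar is 1 library. The basement membrane class takes 87.4% to 92.1% in KO libraries and 66.2% to 82.2% in Ctrl libraries.

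Set against the endothelial markers, the rise of the basement membrane collagens was smaller. Col4a2 stood above the mean endothelial marker by 1.43, 1.35 and 1.06 log2 units in KO cells and by 0.57, 0.97 and 0.75 in Ctrl cells, a difference of 0.52 with no overlap (exact two-sided permutation test, p = 0.1, the smallest possible). For Col4a1 the values were 2.49, 2.22 and 1.82 in KO cells and 1.52, 1.93 and 1.71 in Ctrl cells, a difference of 0.46 in which KO replicate 3 fell inside the Ctrl range (exact permutation p = 0.2). Col18a1 differed by 0.25 (exact permutation p = 0.3), Col15a1 by 0.41 (exact permutation p = 0.7) and Col5a1 by -0.03 (exact permutation p = 1). The endothelial markers themselves differed by 1.29 log2 units.

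**Figure D4:**
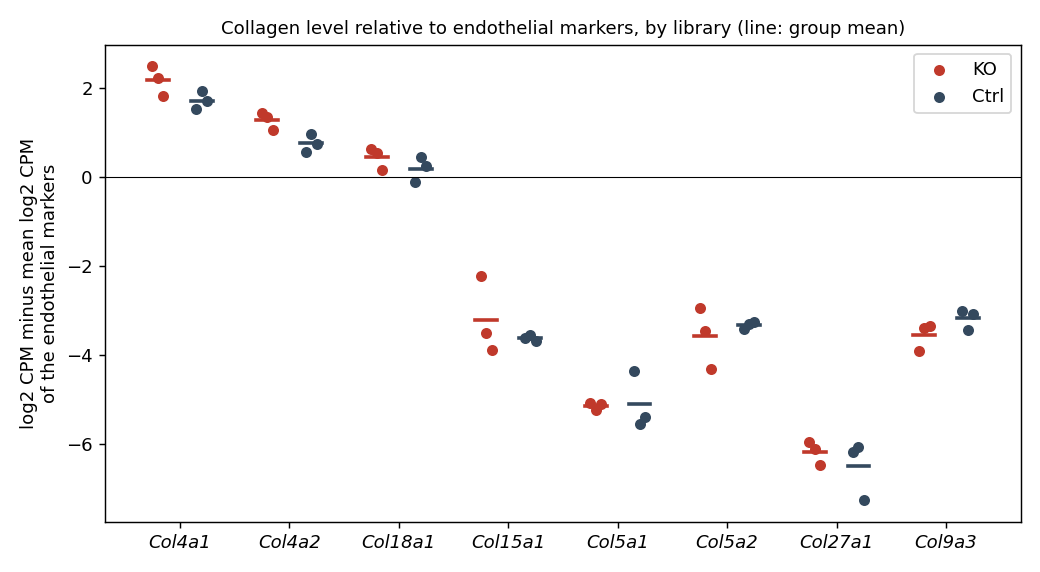
Log2 CPM of 8 collagens minus the mean log2 CPM of the 15 endothelial markers, with KO points left of Ctrl points. Each point is 1 library and each line a group mean. Among the 5 called collagens all KO points lie above all Ctrl points for Col4a2, at 1.06 to 1.43 against 0.57 to 0.97, and the groups overlap for Col4a1, Col18a1, Col15a1 and Col5a1.

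The 5 calls were lost under several alternatives. Scaled to the endothelial markers, which puts the median of all genes at -1.29, the log2 fold changes were 0.47 for Col4a1 (adjusted p = 0.295), 0.51 for Col4a2 (adjusted p = 0.241), 0.25 for Col18a1, 0.62 for Col15a1 and -0.06 for Col5a1, and 10 other collagens passed as lower, beside 50.3% of all genes. Collagen transcripts are rich in G and C, with a median of 56.4% over the tested collagens, 58.0% over the 5 that passed and 50.4% over all genes. With offsets for GC content in each library the log2 fold changes were 1.39 for Col4a1 (adjusted p = 0.0835), 1.25 for Col4a2 (0.0914), 1.00 for Col18a1 (0.171), 1.76 for Col15a1 (0.0955) and 0.97 for Col5a1 (0.0988), so none of the 5 passed, while 6.54% of all genes were called higher and 5.79% lower in that fit. Over all 15 alternatives the adjusted p ran from 0.000139 to 0.295 for Col4a1, from 3.45e-05 to 0.241 for Col4a2, from 0.00146 to 0.587 for Col18a1, from 0.00125 to 0.273 for Col15a1 and from 0.00265 to 0.925 for Col5a1. Leaving out KO replicate 2 or any 1 Ctrl replicate left no collagen, and no gene at all, past edgeR's threshold, with 7 to 10 collagens at an unadjusted p under 0.05.

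**Figure D5:**
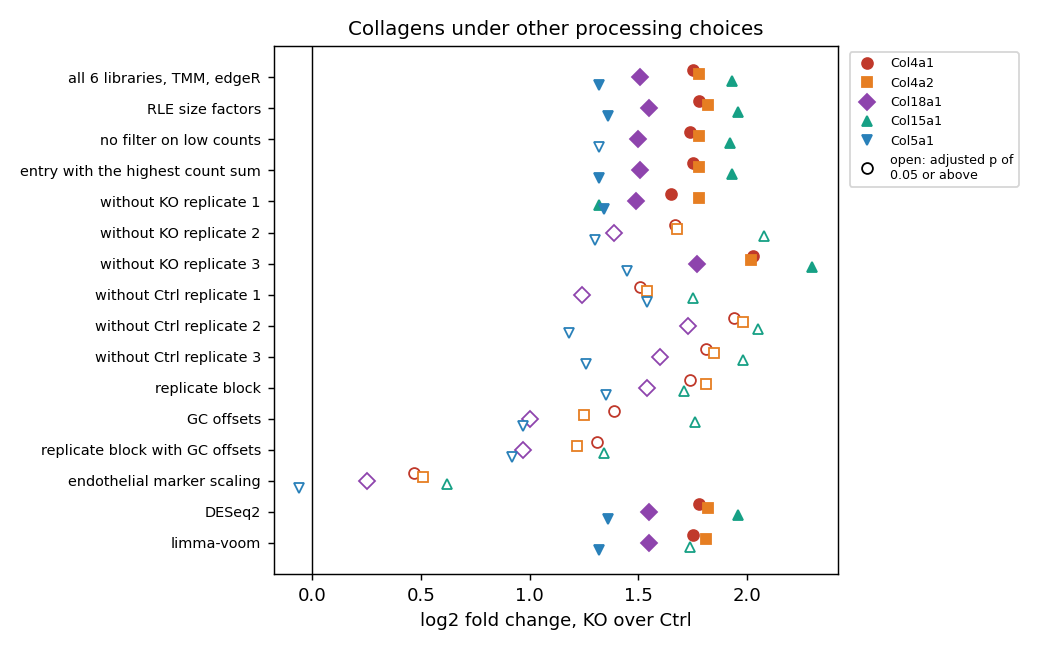
Log2 fold change of KO over Ctrl for the 5 called collagens under the main setting and 15 alternatives. Filled points passed the adjusted p threshold of 0.05. With scaling to the endothelial markers the points for Col4a1, Col4a2 and Col18a1 lie between 0.25 and 0.51 and that for Col5a1 at -0.06, and none of the 5 is filled with GC offsets.

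Of 36 tested genes that modify, fold, carry and crosslink collagen, 8 rose and 2 fell, beside 5.85% and 4.44% of all genes, and 26 did not pass. The median log2 fold change of the list was 0.83. With GC offsets 5 were higher and 1 was lower (median 0.59, beside 6.54% and 5.79% of all genes). With endothelial scaling no gene of the list was higher and 10 were lower (median -0.51, beside 50.3% of all genes lower). That scaling moved the median of all genes from 0.03 to -1.29. It shifts all genes by about the same amount, so the list's place relative to all genes could not change under it. Serpinh1, the collagen chaperone of the endoplasmic reticulum (HSP47), was at 1302, 1654 and 1229 CPM in KO cells and 309, 413 and 445 CPM in Ctrl cells. Every KO library exceeded every Ctrl library, and the log2 fold change was 1.84 (SE 0.265, adjusted p = 0.0211). It passed with GC offsets at 1.52 and did not pass with endothelial scaling at 0.55.

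Members of the complex that adds 3-hydroxyl groups to prolines, Crtap, P3h1 and Ppib, all rose. Crtap, its helper protein, was at 90.5, 106 and 94.3 CPM in KO cells and 16.4, 33.4 and 34.1 CPM in Ctrl cells (log2 fold change 1.79, SE 0.322, adjusted p = 0.0230). P3h1, the enzyme, was at 57.7, 74.9 and 62.6 CPM in KO cells against 33.1, 22.4 and 30.9 CPM in Ctrl cells (1.18, adjusted p = 0.0323), and Ppib, the proline isomerase cyclophilin B, at 347, 413 and 492 CPM in KO cells against 205, 188 and 204 CPM in Ctrl cells (1.07, adjusted p = 0.0324). No KO library overlapped a Ctrl library in any of the 3, beside 19.0% of all genes with KO above Ctrl. With GC offsets all 3 also passed, while with endothelial scaling none did, P3h1 and Ppib being at -0.18 and -0.23. Crtap overlaps 4930520O04Rik and Ppib overlaps Snx22, so some of their counts may be shared.

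Of the folding and secretion genes, Fkbp10, another isomerase of the endoplasmic reticulum, which overlaps Nt5c3b, and Creb3l1, a transcription factor that drives secretory genes, rose by 1.31 (adjusted p = 0.0248) and 2.53 (adjusted p = 0.0301) on the log2 scale. Sec23a, a coat protein of the vesicles that carry procollagen, fell. It was at 108, 71.8 and 64.7 CPM in KO cells and 156, 188 and 180 CPM in Ctrl cells (-1.10, adjusted p = 0.0412). With GC offsets these 3 did not pass, at 0.91 for Fkbp10, 2.04 for Creb3l1 and -0.55 for Sec23a. With endothelial scaling Fkbp10 was at 0.00 and Creb3l1 at 1.20, neither passing, and Sec23a at -2.41, passing as lower.

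Of 14 genes for propeptide removal and crosslinking 11 were tested, and 2 rose and 1 fell, beside 5.85% and 4.44% of all genes. Loxl1, a lysyl oxidase that crosslinks matrix proteins, was at 29.7, 45.8 and 42.9 CPM in KO cells and 8.30, 6.40 and 12.2 CPM in Ctrl cells (log2 fold change 2.14, SE 0.346, adjusted p = 0.0215). It was at 1.53 with GC offsets, passing, and at 0.84 with endothelial scaling, not passing. Bmp1, which cleaves the C-terminal propeptide of fibrillar procollagens, was at 75.7, 89.6 and 51.7 CPM in KO cells against 26.1, 34.4 and 37.7 CPM in Ctrl cells (1.14, adjusted p = 0.0452, not passing with GC offsets). Adamts3, which cleaves the N-terminal propeptide of procollagen and also activates VEGF-C, was lower at 15.5, 9.52 and 15.0 CPM in KO cells against 33.6, 38.6 and 46.1 CPM in Ctrl cells (-1.56, SE 0.302, adjusted p = 0.0241). Groups did not overlap for any of them, beside 19.0% of all genes with KO above Ctrl and 18.9% with KO below.

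Receptors for collagen did not pass in edgeR's test: of 8 tested, none was called, none had an unadjusted p under 0.05, and neither DESeq2 nor limma-voom called one. Itgb1, the integrin beta chain shared by all collagen-binding integrins, averaged 567 CPM in KO cells and 316 CPM in Ctrl cells (log2 fold change 0.84, adjusted p = 0.310), and its partner Itga1 93.2 CPM in KO cells and 64.1 CPM in Ctrl cells (0.54, adjusted p = 0.370). The receptor list's median log2 fold change was 0.77, with single values from -0.32 to 1.33, and -0.44 with endothelial scaling. With GC offsets 2 receptors, Itga1 and Itga2, passed as higher, beside 6.54% of all genes.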

How the data were processed

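CD31-sorted retinal cells of 3 KO and 3 Ctrl pups were analysed. Per the submitters' processing notes, the tools named were Trimmomatic 0.36, STAR, DESeq2, edgeR and deepTools, with the genome build mm10. The authors deposited 1 table per gene entry with raw counts, library-scaled signal (counts divided by size factors), RPKM values, log2 fold changes, a test statistic score and p-values. Raw counts were the input here. The other deposited values served for checks, and the authors' adjusted p-values and fold changes are given only where named. For Ctrl replicate 3 the raw count column is headed CTR35, and its ratio to the scaled column named CTR3 is constant over genes. The deposited gene lengths of 80.4% of matched symbols lie within 2% of the genomic span, so counts include introns.

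Each symbol was taken once, from its longest entry. Genes with enough counts (filterByExpr) were fitted with edgeR 4.0.16 (R 4.3.3), with TMM factors and a quasi-likelihood test of KO over Ctrl over all 6 libraries. Benjamini-Hochberg adjusted p-values cover 16217 genes, with 0.05 as the threshold. The SE is the log2 fold change divided by the square root of F. Log2 CPM of markers used a pseudocount of 0.5. Alternatives were RLE factors, no filter, the entry with most counts, leaving out each library, a replicate block, GC offsets (lowess span 0.3), both together, endothelial scaling, DESeq2 1.42.0 and limma-voom (limma 3.58.1). The fit was tested on simulated data. Single values used an exact two-sided permutation test. P-values measure the spread between these pups, and the labels give no litter or batch. Named collagens are all that passed, the 3 highest of each class and Col4a1, Col4a2 and Col18a1; of each processing list up to 4 that passed are named. Further collagens, receptors and fibroblast markers were named after their values were seen. The members and gene lists were chosen with earlier results of these data known.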

Additional observations from a re-analysis of the deposited data

How the results depend on the processing

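The number of genes past the threshold, 1668 of 16217, was 4927 to 0 when 1 library was left out: 4927 without KO replicate 1, 866 without KO replicate 3, and 0 without KO replicate 2 or Ctrl replicate 1, 2 or 3 in edgeR, where 3576, 4005, 3434 and 3479 genes had an unadjusted p under 0.05. It was 3536 with DESeq2 and 8225 with scaling to the endothelial markers, of which 0.851% were higher. Of the collagens, 5 passed as reported, 8 with DESeq2, 0 to 7 with 1 library left out, 1 with GC offsets (Col17a1, lower) and 10 with endothelial scaling, all lower. Deviations of same-numbered KO and Ctrl libraries from their group means correlated at -0.394, 0.0727 and -0.264. With 3 libraries per group these values cannot settle whether libraries shared a litter or batch, which the labels do not give. With the replicate block 1 gene and 0 collagens passed (10 collagens at an unadjusted p under 0.05), and with the block and GC offsets together 2 genes and 0 collagens (6 collagens unadjusted). Over 33 named genes and 15 alternatives, 342 of 495 values kept direction and side of the threshold, 115 lost the call and 14 gained it. Log2 fold changes at or above 0 that turned negative with endothelial scaling were, among tested collagens and named processing genes, Col11a2 -0.72, Col1a1 -0.42, Col1a2 -0.80, Col4a3 -0.95, Col4a4 -1.03, Col4a5 -1.18, Col16a1 -1.14, Col25a1 -0.38, Col28a1 -0.47, Col2a1 -1.26, Col3a1 -0.50, Col5a1 -0.06, Col5a2 -0.12, Col6a2 -0.54, Col7a1 -0.18, Col9a1 -1.29, Col9a3 -0.34, Bmp1 -0.16, P3h1 -0.18 and Ppib -0.23. With GC offsets Col16a1 was -0.20, Col2a1 -0.52 and Col9a1 -0.09, and with the block as well -0.35, -0.55 and -0.08. With 1 library left out Col2a1 ranged from -0.06 to 0.27, Col9a1 from -0.06 to 0.09 and Col23a1 from -0.22 to 0.04. Endothelial scaling changes the library factors of all genes alike, and its median over all genes was -1.29, against 0.03 in the main fit. The sign changes under it are therefore not particular to the genes listed. The cause of the other changes was not tested. Leaving out a library leaves 2 against 3, and the low counts of beaded filament and network-forming collagens limit what their tests can show.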
